A study of Arabidopsis thaliana with 12 samples.

Results

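The plastid chaperonin beta subunit genes *Cpn60beta3* (locus AT5G56500, on chromosome 5) and *Cpn60beta4* (locus AT1G26230, on chromosome 1) were compared between the *stn8* mutant and the wild type of *Arabidopsis thaliana*. They are the 2 plastid chaperonin genes for which the platform annotation names a probe of their own, out of 692 probes that name exactly 1 gene and 3437 probes with values. They were chosen by the annotation and with their measured stn8 and WT intensities in view, so the difference between the groups is given here as a description and without a test. The study measured total RNA on 12 expression arrays, 6 titled stn8 and 6 titled WT, and the labels name ecotype columbia 0 for all of them. Grouping followed the titles, since the source field reads WT for every one of the 12. The labels do not say whether the numbered samples are separate plants, so any spread given here is between arrays and may be technical. The allele of *stn8*, the tissue, the age of the plants and the growth conditions are not given in the sources used here.

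Chaperonins are barrel-shaped protein complexes that enclose an unfolded protein and let it fold in a closed chamber, at the cost of ATP. The plastid chaperonin, a relative of bacterial GroEL, is built from alpha and beta Cpn60 subunits and works with a lid of co-chaperonins. It is best known for folding the large subunit of Rubisco, the enzyme that fixes carbon dioxide. In *Arabidopsis thaliana* Cpn60beta4 is the divergent member of the beta family and is needed to fold NdhH, a subunit of the chloroplast NDH complex, whereas Cpn60beta3 resembles the major beta subunits. STN8 is a thylakoid protein kinase whose substrates include core proteins of photosystem II.

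The arrays were alike within a group and differed between groups. Over the 3079 probes above 0 on all arrays, Pearson's r between arrays was 0.972 to 0.986 within stn8, 0.905 to 0.969 within WT and 0.676 to 0.725 between the groups, as a description across probes, which are not independent. The median intensity of an array lay between 0.33 and 0.349 in stn8 and between 0.297 and 0.369 in WT. Between 220 and 254 probes were at 0 on a stn8 array, against 173 to 190 on a WT array, and the brightest probe reached 84.4 to 93.9 in stn8, against 166 to 193 in WT, so neither measure overlapped between the groups. *STN8* had 0 probes of its own, so the mutation was not checked from its transcript. All 14 listed markers of seed, flower, root and epidermis also lacked a probe of their own, so the composition of the tissue was not tested, and more cells of a type cannot be told apart from more RNA per cell.

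*Cpn60beta3* was higher in stn8 than in WT on every array. Its deposited intensity, which is linear and on a scale the authors did not state, was 1.38, 1.47, 1.49, 1.28, 1.13 and 1.11 on stn8 arrays 1 to 6. On WT arrays 1 to 6 it was 0.345, 0.372, 0.351, 0.358, 0.25 and 0.278. The groups did not overlap, and the lowest stn8 array, number 6, was 3.0-fold above the highest WT array, number 2. The mean intensity was 1.31 ± 0.164 in stn8 and 0.326 ± 0.0494 in WT (SD, n = 6 each), a ratio of 4.03. On the normalized log2 scale the fold change (stn8 minus WT) was 1.88 ± 0.10 (SE of the fit).

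*Cpn60beta4* was also higher in stn8 on every array. Its intensity was 0.394, 0.433, 0.352, 0.356, 0.31 and 0.264 on stn8 arrays 1 to 6. On WT arrays 1 to 6 it was 0.177, 0.156, 0.15, 0.144, 0.147 and 0.12. The groups did not overlap here either, but the gap was narrower than that of *Cpn60beta3*, with the lowest stn8 array (number 6) 1.49-fold above the highest WT array (number 1). The mean was 0.351 ± 0.0597 in stn8 and 0.149 ± 0.0185 in WT (SD, n = 6 each), a ratio of 2.36, and the log2 fold change was 1.35 ± 0.15. With a pseudocount of 0.0584 added before the logarithm, which shrinks the fold of dim probes, it was 1.05. Neither gene was at 0 on any array.

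**Figure D1:**
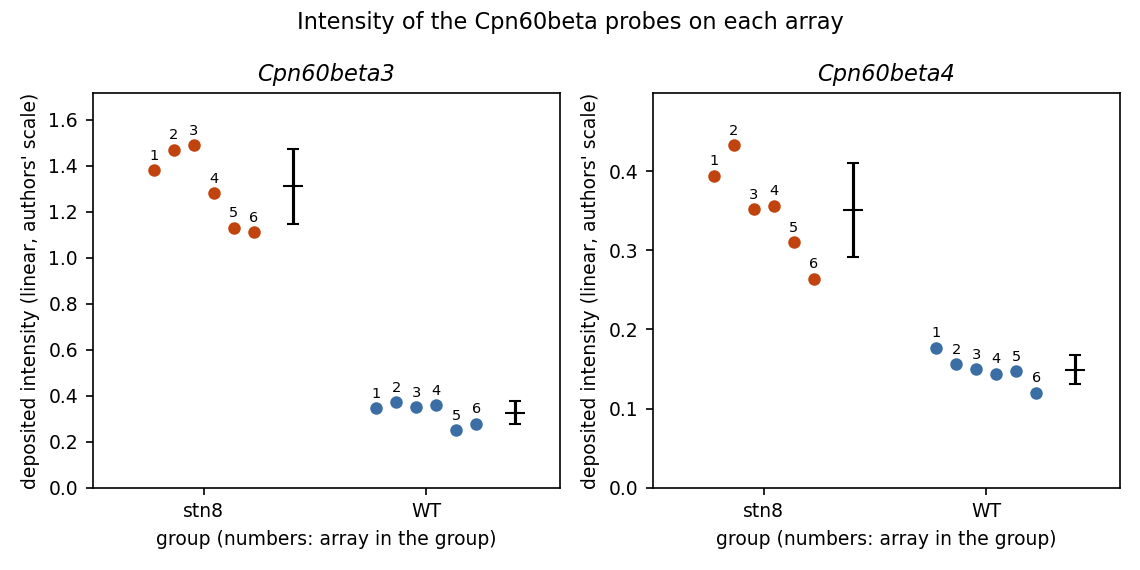
Deposited intensity (linear scale, from 0) of Cpn60beta3 and Cpn60beta4 on the 6 stn8 and the 6 WT arrays; each point is an array with its number, and the bars give the mean and the SD. For both genes all stn8 points lie above all WT points, with means of 1.31 in stn8 and 0.326 in WT for Cpn60beta3 and of 0.351 in stn8 and 0.149 in WT for Cpn60beta4.

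Separation of this kind was common on these arrays. Groups without overlap and higher in stn8 were found for 983 of all 3437 probes (28.6%), and the limma test (adjusted p under 0.05, Benjamini-Hochberg over all probes) called 34.7% of all probes higher and 35.8% lower in stn8. Both genes were among the probes that did not overlap, and nothing is read from this, since they were chosen with the same difference in view. By log2 fold change 268 probes (7.8%) exceeded *Cpn60beta3* and 467 (13.6%) exceeded *Cpn60beta4*. Among the 692 probes with 1 gene, 63 exceeded *Cpn60beta3* and 101 exceeded *Cpn60beta4*.

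**Figure D2:**
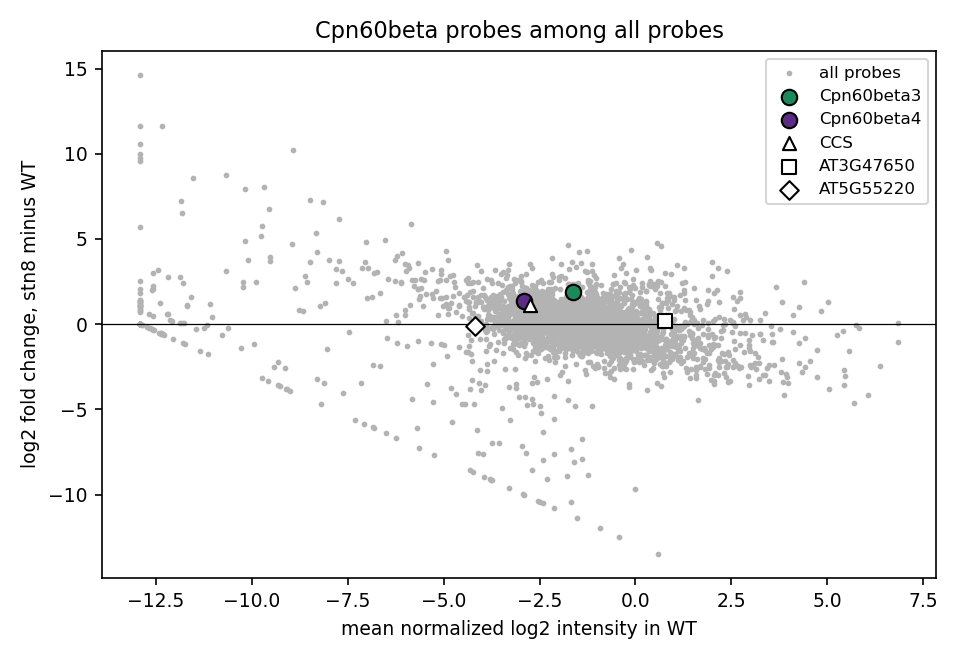
Log2 fold change (stn8 minus WT) of each of the 3437 probes against its mean normalized log2 intensity in WT; grey points are all probes, filled circles the Cpn60beta genes and open symbols the other listed genes with a probe of their own. Cpn60beta3 lies at 1.88 and Cpn60beta4 at 1.35, above the zero line and inside the cloud of probes.

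The rank of a probe on its own array does not depend on how arrays were scaled to each other. *Cpn60beta3* stood between percentiles 83.4 and 87.8 of all probes on the stn8 arrays, against 42.7 to 55.1 on the WT arrays. It thus lay among the brighter probes in stn8 and near the middle in WT. *Cpn60beta4* stood between percentiles 41.1 and 58.7 in stn8, against 17.3 to 27.3 in WT. For both genes the stn8 and WT ranks did not overlap. How many of all probes had ranks apart in this way was not counted, so nothing is read from it.

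The difference was larger for *Cpn60beta3* than for *Cpn60beta4*. The log2 ratio of *Cpn60beta3* over *Cpn60beta4* within an array was taken from deposited intensities. A factor common to all probes of an array cancels in it, but a difference that depends on intensity does not. The ratio was 1.91 ± 0.14 in stn8 and 1.13 ± 0.21 in WT (SD, n = 6 each). It ranged over 1.76 to 2.08 in stn8 and over 0.77 to 1.31 in WT, without overlap. How many other pairs of probes had ratios apart in this way was not counted. The shift of 0.78, or 1.72-fold, is a difference between the changes of the 2 probes and says nothing of which transcript was more abundant, because probes differ in how brightly they report. After quantile normalization the log2 fold changes of 1.88 and 1.35 lay closer together than this.

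Arrays with the same number gave similar ratios, though the titles do not say what the numbers mean. For *Cpn60beta3* the intensity on stn8 array 1 over that on WT array 1 was 4.0, and the ratios of arrays 2 to 6 were 3.96, 4.25, 3.57, 4.53 and 4.01. For *Cpn60beta4* the ratios of arrays 1 to 6 were 2.23, 2.78, 2.35, 2.47, 2.12 and 2.21. Between same-numbered arrays the smallest ratio of *Cpn60beta3* was thus above the largest of *Cpn60beta4*. Over any stn8 and any WT array the ratio ran from 3.0 to 5.96 for *Cpn60beta3* and from 1.49 to 3.62 for *Cpn60beta4*, which overlapped.

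Within both groups arrays 5 and 6 gave the lowest values of *Cpn60beta3*. Its mean intensity was 1.43 over stn8 arrays 1 and 2, 1.38 over arrays 3 and 4 and 1.12 over arrays 5 and 6, against 0.358, 0.354 and 0.264 over the same WT arrays. WT arrays 5 and 6 also stood apart over the 3079 probes, with r of 0.905 to 0.921 with WT arrays 1 to 4, against 0.952 to 0.969 among those 4. *Cpn60beta4* had 0.413, 0.354 and 0.287 over those stn8 arrays, against 0.166, 0.147 and 0.133 over those of WT. On the normalized scale stn8 arrays 5 and 6 lay below the group mean for both genes, by -0.22 and -0.21 for *Cpn60beta3* and by -0.16 and -0.36 for *Cpn60beta4*. In WT the genes parted on array 5, with a deviation of -0.23 for *Cpn60beta3* and 0.19 for *Cpn60beta4*. On this scale the lowest WT arrays of *Cpn60beta4* were 3 and 4, at -0.22 and -0.30, with -0.20 on array 6. What sets arrays 5 and 6 apart was not tested.

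**Figure D3:**
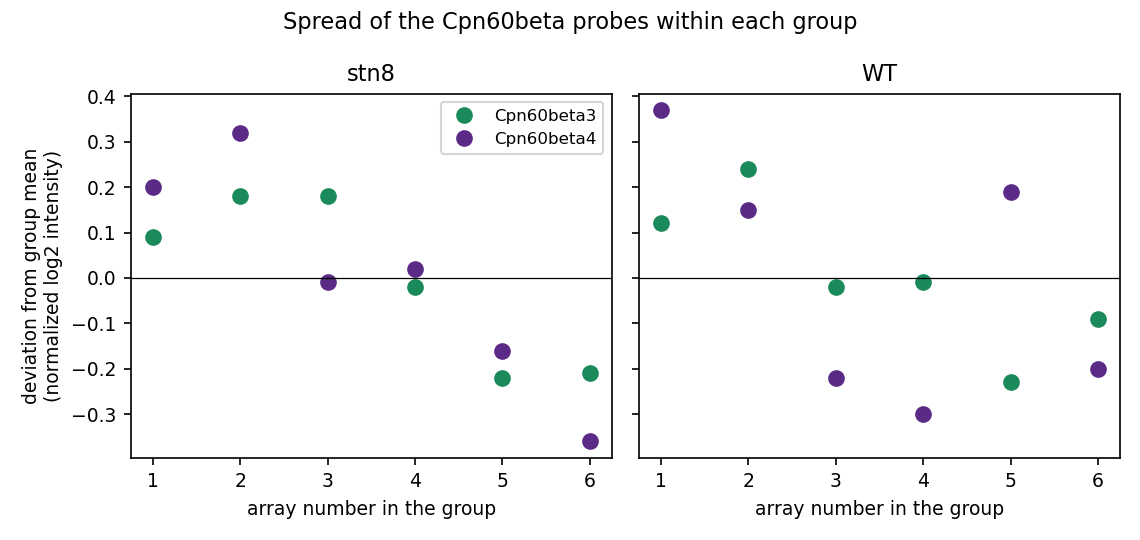
Deviation of each array from the mean of its group (normalized log2 intensity) for Cpn60beta3 and Cpn60beta4, in stn8 on the left and WT on the right, by array number. In stn8 arrays 5 and 6 lie below 0 for both genes, and on WT array 5 Cpn60beta3 lies at -0.23 and Cpn60beta4 at 0.19.

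The log2 fold changes were close to the same when those arrays were left out. Without stn8 arrays 5 and 6 they were 1.96 for *Cpn60beta3* and 1.44 for *Cpn60beta4*, and without WT arrays 5 and 6 they were 1.80 and 1.38. The SD within a group was 0.18 in stn8 and 0.16 in WT for *Cpn60beta3*, and 0.24 in stn8 and 0.28 in WT for *Cpn60beta4*, against a median over probes of 0.15 in stn8 and 0.24 in WT. In stn8 63.3% of the 3079 probes varied less than *Cpn60beta3* and 79.8% less than *Cpn60beta4*, against 26.0% and 59.1% in WT. Both genes thus varied more than the median probe in stn8, and in WT only *Cpn60beta4* did.

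**Figure D4:**
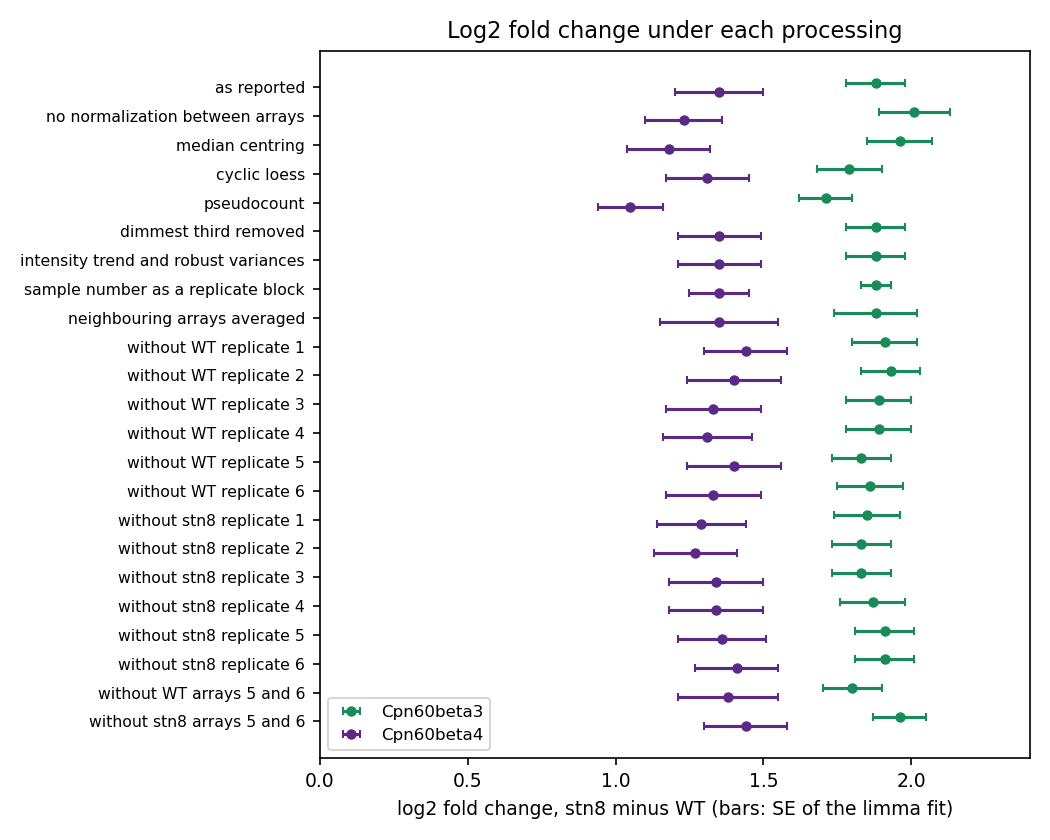
Log2 fold change (stn8 minus WT) of Cpn60beta3 and Cpn60beta4 with its SE under the processing reported here and 22 alternatives. Values run from 1.71 to 2.01 for Cpn60beta3 and from 1.05 to 1.44 for Cpn60beta4, all to the right of 0.

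Spots numbered next to the genes had log2 fold changes of both signs. Of the 5 spots within 4 spot numbers of *Cpn60beta3*, the brightest in stn8 had a mean of 0.409 in stn8 and 0.0951 in WT. It was an unnamed spot 3 numbers away, with a log2 fold change of 2.41, in the same direction as *Cpn60beta3*. The other spots had log2 fold changes of -0.57, -0.66, 0.46 and 0.33. *Cpn60beta4* had 6 such spots, whose brightest had a mean of 1.67 in stn8 and 2.92 in WT. That spot had a log2 fold change of -1.09, and the others had -1.11, -0.32, 0.00, 0.06 and 0.17, the 0.00 being a spot at 0 on all arrays. No source used here gives the spot layout, so neighbours in number need not be neighbours on the slide.

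Of the rest of the plastid chaperonin little could be seen. The list held 9 loci, 6 subunits and 3 co-chaperonins, and besides the 2 genes described 0 had a probe of their own. The alpha subunits, the major beta subunits Cpn60beta1 and Cpn60beta2, and the co-chaperonins, among them CPN20, were therefore not analysed here. No source used here says whether the probes separate the beta copies, so signal from a related beta transcript cannot be told apart from that of the named gene.

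A wider list of 128 loci joined chaperonins, other chaperones, heat shock proteins, Rubisco and its assembly factors, plastid division genes and genes whose RefSeq names hold a chaperone word. It had 3 further genes with a probe of their own, and 7 more probes shared by several genes were not used. Of the 3 genes, 2 rose, 0 fell and 1 did not pass the limma test, with a median log2 fold change of 0.17, beside 70.4% of all probes called and a median of 0.00 over all probes. None of the 3 was on a chaperonin list.

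*CCS* (locus AT1G12520), which delivers copper to superoxide dismutase and is a metal chaperone rather than a folding factor, rose 2.03-fold. Its intensity was 0.359, 0.289, 0.346, 0.336, 0.309 and 0.356 on stn8 arrays 1 to 6, against 0.168, 0.145, 0.186, 0.197, 0.138 and 0.146 on WT arrays 1 to 6. The groups did not overlap. The log2 fold change was 1.12 ± 0.06 (SE, limma adjusted p = 1.37e-08).

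*AT3G47650*, entered on the list of Rubisco subunits and assembly factors, rose slightly. Its mean intensity was 2.14 ± 0.177 in stn8 and 1.55 ± 0.106 in WT (SD, n = 6 each), with a lowest stn8 array of 1.98 and a highest WT array of 1.72. The log2 fold change was 0.17 ± 0.06 (limma adjusted p = 0.0211), against 0.46 without normalization and 0.41 with median centring. The call was lost with cyclic loess (adjusted p = 0.0777), with neighbouring arrays averaged (adjusted p = 0.141) and without WT arrays 5 and 6 (adjusted p = 0.0796).

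*AT5G55220*, entered on the list of other plastid chaperones, was near the floor of the arrays. Its intensity was 0.0125 to 0.0549 in stn8 and 0.0622 to 0.113 in WT, with stn8 array 5 the lowest and WT array 5 the highest. Deposited means were 0.0405 ± 0.0163 in stn8 and 0.078 ± 0.0191 in WT (SD, n = 6 each), and the groups did not overlap. The share of all probes without overlap and lower in stn8 is not given here, so nothing is read from this. After quantile normalization the log2 fold change was -0.12 ± 0.33 and did not pass (limma adjusted p = 0.781), whereas without normalization it was -1.06 (adjusted p = 0.0143). No direction is given for this gene, since its sign turned without WT array 5 (0.09), stn8 array 5 (0.01) or WT arrays 5 and 6 (0.22).

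**Figure D5:**
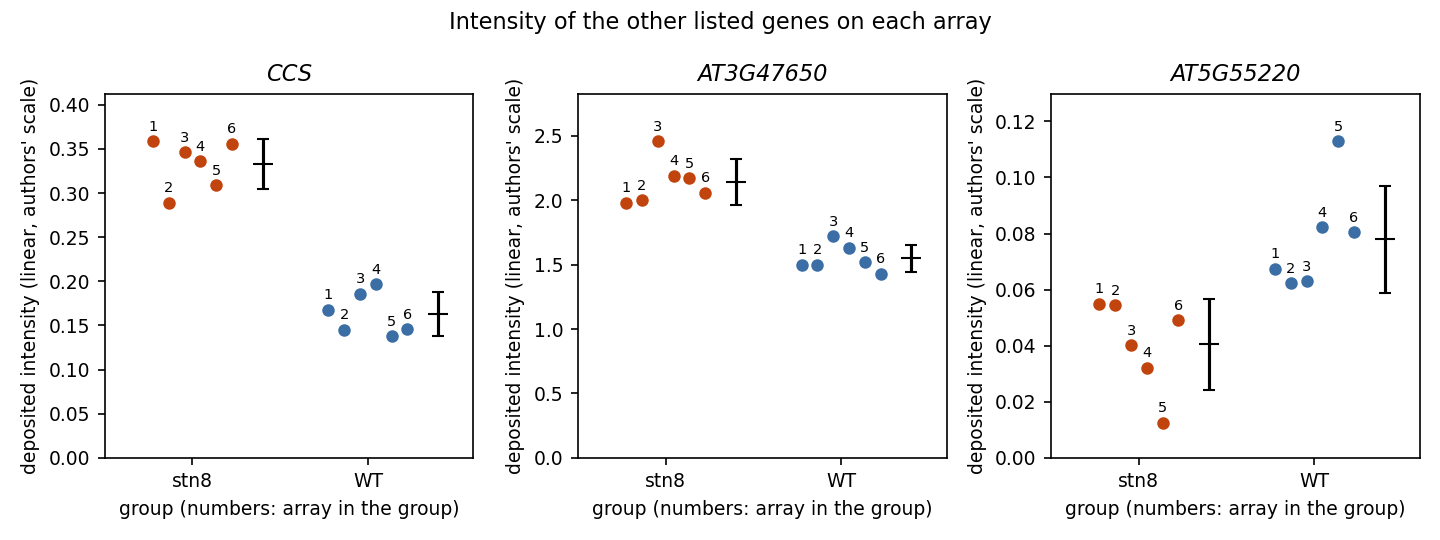
Deposited intensity (linear scale, from 0) of CCS, AT3G47650 and AT5G55220 on each stn8 and WT array, with the mean and SD; numbers name the arrays. CCS lies between 0.289 and 0.359 in stn8, above its WT arrays, whereas AT5G55220 has its lowest point on stn8 array 5 at 0.0125 and its highest on WT array 5 at 0.113.

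The genes whose profile was most like each Cpn60beta gene were sought among 615 other probes with 1 gene that were above 0 on all arrays, by Pearson's r over the 12 arrays of normalized log2 intensity. Because the arrays form 2 separate groups, this r mostly reflects the difference between them, and it is given as a measure of likeness only. For *Cpn60beta3* it exceeded 0.9 for 148 genes (24.1%) and for *Cpn60beta4* for 93 genes (15.1%).

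Closest to *Cpn60beta3* was *AT5G53920* (r = 0.997, and 0.88 with group means removed), with a mean intensity of 0.57 in stn8 and 0.216 in WT. *AT1G32160* followed (r = 0.996, and 0.86), with 1.03 in stn8 and 0.183 in WT. *AT3G13150* (r = 0.992, and 0.81) had 4.26 in stn8 and 1.49 in WT, and *AT5G46560* (r = 0.992, and 0.63) had 3.4 in stn8 and 0.867 in WT. With group means removed, over both groups together, the likeness was stronger for the first of these than for the last. Over the 615 genes the median r with group means removed was -0.11 for *Cpn60beta3* and -0.06 for *Cpn60beta4*.

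Closest to *Cpn60beta4* was again *AT3G13150* (r = 0.975, and 0.76 with group means removed). *AT4G33540* (r = 0.969, and 0.68) had a mean of 2.05 in stn8 and 0.601 in WT, and *FBL17*, an F-box protein gene, (r = 0.964, and 0.62) had 0.245 in stn8 and 0.151 in WT. The fourth was *Cpn60beta3* (r = 0.961, and 0.55). With group means removed, 27 genes were closer to *Cpn60beta4* than *Cpn60beta3* was, against 3 over the 12 arrays as they stand. Seen from *Cpn60beta3*, 61 genes were closer than *Cpn60beta4*, and 62 with group means removed.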

How the data were processed

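Intensities of 12 arrays (6 stn8, 6 WT) were used as deposited. They are linear and never below 0, as read from the values. The background correction and scaling by the authors, the array design and the scanner are not given in any source used here. Of 3439 rows 2 held no value. The annotation named 1 gene for 692 probes (690 matched to the TAIR10.1 gene table) and several for 869, and left 1876 unlisted. A 0 was replaced by its array's smallest value above 0. On the log2 scale array medians differed by 0.311, hence quantile normalization. The fit of stn8 against WT was made with limma 3.58.1 in R 4.3.3 (lmFit, eBayes, two-sided, Benjamini-Hochberg over 3437 probes, threshold 0.05), tested on simulated data. Ratios compare deposited means, whereas log2 fold changes come from normalized values. The number of arrays limits the precision. Figures used matplotlib 3.10.9 under Python 3.11.15.

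The members and lists were chosen with earlier results of these data known. Named genes were the members, listed genes with a probe of their own, and the 4 genes most like each member. Deviations of same-numbered arrays from their group means correlated at 0.17 to 0.33 in all 6 pairs (different numbers -0.28 to 0.29). For each stn8 array the same-numbered WT array had the highest r. The ranges overlapped only through stn8 array 6 with WT array 5 (0.29) and stn8 array 5 with WT array 6 (0.25). All other pairs of different numbers were at 0.16 or below. The reported fit did not pair arrays by number, and the block by number was an alternative. The numbers come from the titles, which do not say what they mean. No sequences were used. Alternatives were the normalization, the low values, a filter on dim probes, the variance model, the replicate block, averaged neighbours and arrays left out.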

Additional observations from a re-analysis of the deposited data

How the results depend on the processing

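*Cpn60beta3* stayed higher in stn8 under the 22 alternatives tried (log2 fold change 1.71 to 2.01, and 1.83 to 1.93 with 1 array left out), as did *Cpn60beta4* (1.05 to 1.44, and 1.27 to 1.44 with 1 array left out). Its lowest value, 1.05 with the pseudocount, differed from 1.35 by more than the spread between arrays; adding a constant shrinks the fold of a dim probe by construction. With the sample number as a replicate block the values were 1.88 and 1.35, which this block cannot change because every number occurs in both groups. Their SE was 0.05 for *Cpn60beta3* and 0.10 for *Cpn60beta4* with the block, against 0.10 and 0.15 without it. With the block 2477 probes were called, against 2421 without it, and it changed no call of a named gene. Over all alternatives 1858 to 2494 probes were called, and 2342 to 2421 with 1 array left out. The 1858 came from 2292 probes tested, after the dimmest 33.3% were removed. Of the 3 other listed genes, 2 were called with any 1 array left out, but 1 with cyclic loess, with neighbouring arrays averaged and without WT arrays 5 and 6, where *AT3G47650* was not called. The cause was not tested. *AT5G55220*, not called in the reported fit, had -0.30 to 0.09 with 1 array left out (0.09 without WT array 5 and 0.01 without stn8 array 5), 0.22 without WT arrays 5 and 6, and was called lower without normalization (-1.06) and with median centring (-1.11). It was not tested after the dim filter, which removed it. Leaving out WT or stn8 arrays 5 and 6 was chosen after seeing the data. A value far from the others of its group was sought for the 2 members and the 3 other listed genes, gene by gene (10 groups of 6 intensities), and 0 stood out; this does not bear on WT arrays 5 and 6, which differed from the other WT arrays over all probes. Dim probes such as *AT5G55220* are limited by signal near the floor.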
